A study of Homo sapiens with 8 samples.

Results

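Ribosome-footprint levels were examined for 10 genes that build or regulate the cap-binding complex eIF4F: the scaffolds EIF4G1, EIF4G2 and EIF4G3, the cap-binding proteins EIF4E, EIF4E2 and EIF4E3, the eIF4E-binding repressors EIF4EBP1 and EIF4EBP2, and the helicase cofactors EIF4B and EIF4H. They were picked by symbol for their roles, with no value threshold but with earlier results of these data known. All 10 were found among the 60651 genes of the deposited table. Ribosome profiling, which sequences the mRNA fragments shielded by ribosomes, was done in IMR32, a human neuroblastoma line with amplified MYCN. Cells of 4 libraries had received CR31B, a silvestrol analogue of the rocaglate class whose dose the labels do not give, and cells of the other 4 libraries DMSO at 0.1%. Both groups were labelled wild type, both were harvested after 6 h, and both had cycloheximide added before harvest. Fragments of 28 to 30 nt were selected. The series describes the 4 libraries of each group as biological replicates of this single cell line, so the spread between them covers cultures and not cell lines. Only footprints were measured, so a change in the mRNA and a change in its translation cannot be told apart.

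From 17857 to 22270 genes were above 0 per library, and protein-coding genes took from 51.8% to 61.3% of the summed TPM, a level divided by transcript length and scaled so that every library has one total, with the top value in CR31B replicate 1. Because of that scaling, each rise or fall reported here is relative to the other footprints of the same library. TPM does not hold the total amount of footprints. The cell type label was checked against markers. Of 10 sympathetic neuroblastoma markers 9 had a mean of at least 1 TPM, with TH below it, and their summed level was 1281 to 1859 TPM in CR31B and 1198 to 1429 TPM in DMSO. None of 4 haematopoietic and 3 epithelial markers reached a mean of 1 TPM. Of 6 mesenchymal markers COL1A1 and FN1 did, and that list summed to 10.1 to 19.0 TPM in CR31B and 12.6 to 22.7 TPM in DMSO.

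In eukaryotic cells eIF4E binds the cap of an mRNA, eIF4G holds eIF4E together with the RNA helicase eIF4A, and the helicase opens the leader so that a ribosomal subunit can reach the start codon. eIF4B and eIF4H stimulate the helicase, while the 4E-binding proteins compete with eIF4G for eIF4E until the kinase mTORC1 phosphorylates them. Rocaglates clamp eIF4A onto purine-rich RNA, and MYCN-driven tumours are known for high demand on this machinery. EIF4G2, also called DAP5, resembles the helicase-binding part of the other scaffolds but lacks the eIF4E-binding part.

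The scaffolds also differ in how their own mRNAs are started. The annotated start site of each is printed here because EIF4G2 is the one that does not begin at ATG. Whether the start codon bears on the change of any scaffold was not tested. Sequences run 5′ to 3′ on the sense strand of the representative GENCODE release 29 transcript, with the start codon in capitals, and EIF4E is given as a cap-binding partner for comparison.
EIF4G1: ccaaatgaaATGaacaaagct
EIF4G2: gccgccaaaGTGgagagtgcg
EIF4G3: cctcagacaATGaattcacaa
EIF4E: cgatctaagATGgcgactgtc
In GRCh38 these codons lie at chr3:184315797-184315799 on the plus strand (EIF4G1), and on the minus strand at chr11:10807293-10807295 (EIF4G2), chr1:21002740-21002742 (EIF4G3) and chr4:98929110-98929112 (EIF4E). Of 10121 protein-coding genes tested here with an annotated leader, 10118 start at ATG and 3 at another codon, and EIF4G2 is the only one at GTG. The EIF4G2 leader is 511 nt long with a GC content of 49.9%, against 271 nt and 70.1% for EIF4G1, and medians of 206 nt and 66.5% over those genes. The EIF4G3 leader has 195 nt at 54.9%, and that of EIF4E has 1525 nt at 47.0%. A long leader of low GC content is thus not particular to EIF4G2. These are properties of the annotation, and footprint levels per gene do not show where on the mRNA the ribosomes were.

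The 10 genes covered a wide range of levels. In DMSO the order of mean TPM, which is scaled per length, was EIF4G2, EIF4H, EIF4E, EIF4E2, EIF4B, EIF4G1, EIF4EBP1, EIF4G3, EIF4E3 and EIF4EBP2, from 427 TPM down to 2.175 TPM. Neighbours in that order did not overlap, except EIF4E2 with EIF4B, EIF4G1 with EIF4EBP1 and EIF4G3 with EIF4E3. By mean TPM in CR31B, EIF4H took the first place and EIF4G2 the second, and EIF4G1 passed EIF4B to the fifth. The CR31B libraries of EIF4H overlapped those of EIF4G2, and those of EIF4G1 overlapped those of EIF4B. TPM divides by the whole transcript, so a gene with a long untranslated part can get a lower value per footprint. The coding part is 87.0% of the representative EIF4G1 transcript but 4.96% for EIF4EBP2, 5.65% for EIF4E and 6.75% for EIF4E3. The median is 49.0%. Which transcripts lie behind the TPM values is not known, so the size of this effect is not known either.

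**Figure D1:**
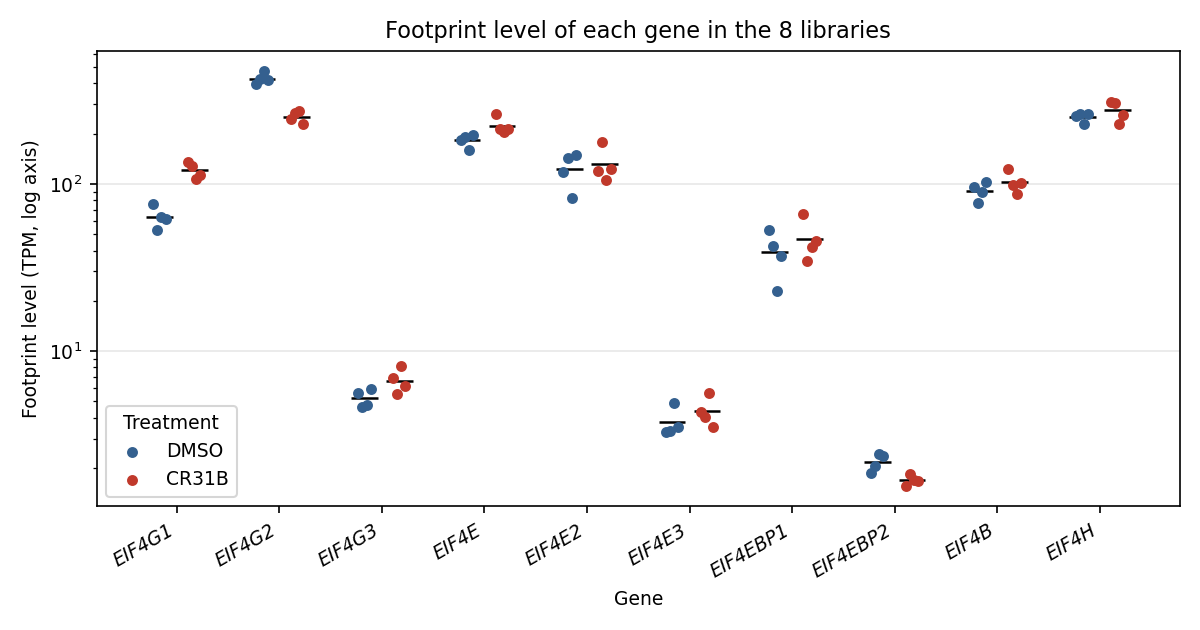
Footprint level of each gene in TPM on a log axis, with 1 point per library (DMSO blue, CR31B red) and a black line at the group mean of 4 libraries. EIF4G1 lies higher and EIF4G2 lower in all 4 CR31B libraries, and EIF4G3, EIF4E3 and EIF4EBP2 stay below 10 TPM in every library.

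EIF4G1 rose under CR31B. This gene, on chr3:184314495-184335358 (plus strand; representative transcript with 33 exons), encodes the main eIF4G scaffold. In replicate order 1 to 4, its values were 76.1, 52.9, 63.7 and 61.4 TPM with DMSO and 136, 127, 108 and 113 TPM with CR31B. Every CR31B library was thus above every DMSO library. The mean of 121 ± 13.1 TPM (SD, n = 4) was 1.90 times the DMSO mean of 63.5 ± 9.60 TPM (SD, n = 4). On the log2(TPM + 1) scale this was a fold change of 0.92 (SE 0.13; 95% confidence interval, CI, 0.63 to 1.22; adjusted p of 0.00380 by limma, a linear model over all genes), and 1.44% of all genes tested had a higher one. No window of 28 nt in its coding sequence occurred in another annotated gene, and SNORD66, a small nucleolar RNA gene in one of its introns, was listed at 0 in all 8 libraries.

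EIF4G2 fell. The gene lies on chr11:10797050-10809110 (minus strand, 22 exons), and its product supports initiation that does not use eIF4E. Its values, again by replicate, were 394, 424, 471 and 417 TPM with DMSO and 244, 266, 275 and 229 TPM with CR31B. The highest CR31B library was far below the lowest DMSO library. The CR31B mean of 253 ± 20.9 TPM was 0.594 times the DMSO mean of 427 ± 32.4 TPM (SD, n = 4 each). This gave a log2 fold change of -0.75 (SE 0.11, 95% CI -0.998 to -0.50, limma adjusted p of 0.00418), and 2.39% of all genes tested had a lower one. Its coding sequence shared no window of 28 nt with another gene. SNORD97, inside one of its exons, was listed at 0 in all libraries, and CTR9, whose exons overlap on the opposite strand, stood at 7.14 to 8.48 TPM in CR31B and 7.25 to 8.80 TPM in DMSO. For both EIF4G1 and EIF4G2 the call held in all 18 alternatives, the replicate block and each left-out library included, with log2 fold changes from 0.84 to 1.01 and from -0.79 to -0.68.

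EIF4G3, the third scaffold (chr1:20806292-21176888, minus strand), functions like EIF4G1 and was scarce. Its 4 DMSO libraries held 5.60, 4.65, 4.75 and 5.91 TPM and its 4 CR31B libraries 6.87, 5.51, 8.11 and 6.20 TPM. The CR31B library was the higher in 4 of 4 replicate pairs, but the groups overlapped. Its log2 fold change of 0.30 (SE 0.14, 95% CI -0.021 to 0.61) did not pass the threshold (limma adjusted p of 0.246).

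Within the scaffold group the makeup shifted from EIF4G2 toward EIF4G1. EIF4G1 made up 16.0%, 10.98%, 11.8% and 12.7% of the summed TPM of the 3 genes in DMSO replicates 1 to 4, and 35.2%, 31.9%, 27.5% and 32.4% in CR31B replicates 1 to 4. The share of EIF4G2 went from 86.1% ± 2.31 in DMSO to 66.5% ± 3.02 in CR31B (SD, n = 4 each), and that of EIF4G3 from 1.06% ± 0.164 to 1.76% ± 0.285. The sum itself was 495 ± 29.8 TPM in DMSO and 381 ± 22.7 TPM in CR31B. These shares restate the same values and carry no test.

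Whether paralogs changed by different amounts was compared in 7 pairs through the log2 ratio of the 2 genes in each library, which, apart from the pseudocount, does not depend on the sum to which TPM is scaled. The EIF4G1 to EIF4G2 log2 ratio was -2.74 ± 0.27 in DMSO and -1.06 ± 0.21 in CR31B (SD, n = 4 each), a difference of 1.67. For EIF4G1 and EIF4G3 the ratio was 3.37 ± 0.18 and 3.99 ± 0.31, a difference of 0.63, and for EIF4G2 and EIF4G3 it was 6.10 ± 0.23 and 5.06 ± 0.20, a difference of -1.05. In these 3 pairs the groups did not overlap, and each had an exact permutation p of 0.0286 (two-sided), the smallest that 4 against 4 libraries allow. Adjusted over the 7 pairs this was 0.0667, so no pair passed 0.05. With only 3 of the 7 pairs at that smallest p, none could pass after adjustment, whatever the size of its difference. With a pseudocount of 0.1 TPM the EIF4G1 and EIF4G3 pair, at a difference of 0.59, had an exact permutation p of 0.0857. Taken within replicate pairs the exact permutation p was 0.125, the smallest that 4 pairs allow, with the same direction in 4 of 4. The other 4 pairs overlapped between the groups, and their differences of 0.18 (EIF4E and EIF4E2), 0.12 (EIF4E and EIF4E3), 0.52 (EIF4EBP1 and EIF4EBP2) and 0.039 (EIF4B and EIF4H) had adjusted exact permutation p of 0.600, 0.629, 0.400 and 0.629.

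**Figure D2:**
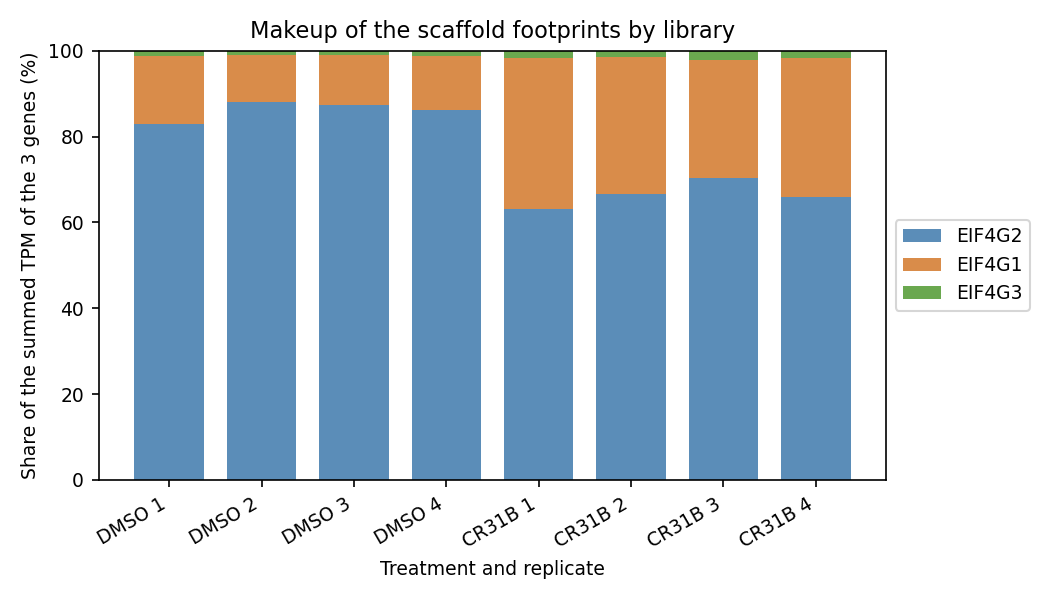
Percent of the summed TPM of EIF4G1, EIF4G2 and EIF4G3 taken by each gene, as stacked bars, 1 bar per library. EIF4G1 takes 10.98% to 16.0% in the 4 DMSO libraries and 27.5% to 35.2% in the 4 CR31B libraries, and EIF4G3 stays the smallest share throughout.

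Among the cap-binding proteins none passed the adjusted threshold. EIF4E (chr4:98871684-98930637, minus strand), the main cap-binding subunit, had DMSO values of 183, 190.4, 159.6 and 197 TPM and CR31B values of 261, 214, 205 and 214 TPM. All CR31B libraries were above all DMSO libraries, by a small margin. The fitted log2 fold change of 0.29 (SE 0.12, 95% CI 0.025 to 0.55) came with a limma adjusted p of 0.174 and of 0.0949 with the replicate block. CR31B replicate 1, the highest, is also the library with the largest protein-coding share, 61.3%; that share was 51.8% to 52.3% for CR31B replicates 2 to 4 and 52.0% to 58.4% for DMSO. When each library was scaled to its protein-coding sum instead, EIF4E passed, with a value of 0.32 and a limma adjusted p of 0.0349, so the call depends on the scaling.

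EIF4E shares 89.3% of the 28-nt windows of its coding sequence with other annotated genes, nearly all with the processed pseudogene EIF4EP2. The table lists EIF4EP2 at 8.07 ± 1.48 TPM for DMSO and 4.595 ± 1.69 TPM for CR31B (SD, n = 4 each), which is 3.12% of the EIF4E level. With the pseudogenes added, EIF4E had a log2 fold change of 0.26 (limma adjusted p of 0.228). How reads with several possible origins were divided is not given in the sources used here, so the EIF4E level carries that uncertainty.

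EIF4E2, also called 4EHP, binds the cap without recruiting eIF4G and acts as a repressor. The gene lies on chr2:232550052-232583644 (plus strand), with 117, 143, 82.2 and 149 TPM in the DMSO libraries and 119.8, 179, 106 and 123 TPM in the CR31B libraries. Replicate 3 was the lowest of each group, while the highest was replicate 4 in DMSO and replicate 2 in CR31B. The groups overlapped. The estimate was a log2 fold change of 0.11 (SE 0.21, 95% CI -0.36 to 0.58, limma adjusted p of 0.806), and its sign turned without CR31B replicate 2, at -0.044, or without DMSO replicate 3, at -0.069.

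EIF4E3, an atypical cap-binding paralog (chr3:71675416-71754773, minus strand), was near the lower end. DMSO replicates 1 to 4 held 3.29, 3.35, 4.92 and 3.54 TPM of it, and CR31B replicates 1 to 4 held 4.34, 4.02, 5.65 and 3.53 TPM. Replicate 3 was the highest of each group. The groups overlapped, with a log2 fold change of 0.17 (SE 0.17, 95% CI -0.19 to 0.54, limma adjusted p of 0.583). The overlapping coding gene AC097634.4 holds 79.7% of the EIF4E3 coding windows and was listed higher, at 6.53 ± 1.16 TPM for DMSO and 6.025 ± 1.68 TPM for CR31B. Adding it brought the EIF4E3 log2 fold change to 0.015, so this estimate depends on how reads were shared.

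Neither repressor of eIF4E passed the threshold. In TPM per whole transcript EIF4EBP1 read higher than EIF4EBP2. The coding part is 34.7% of the representative transcript of the first and 4.96% of that of the second. These levels may therefore overstate the difference per coding length, depending on the transcripts behind the TPM. EIF4EBP1 (chromosome 8, plus strand), the best-studied 4E-binding protein, had 53.1, 42.7, 23.0 and 37.3 TPM in its DMSO libraries. Its CR31B libraries had 66.4, 34.8, 42.0 and 45.3 TPM. The groups overlapped widely, and the log2 fold change of 0.29 had a wide interval (SE 0.25, 95% CI -0.28 to 0.85, limma adjusted p of 0.548). The estimate rested on single libraries: it was 0.061 without DMSO replicate 3, 0.11 without CR31B replicate 1 and 0.45 without DMSO replicate 1.

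EIF4EBP2 (chr10:70404379-70428618, plus strand), the form prominent in neurons, had 1.88, 2.05, 2.42 and 2.35 TPM in its DMSO libraries and 1.57, 1.84, 1.69 and 1.68 TPM in its CR31B libraries. All CR31B libraries were below all DMSO libraries. On the log2(TPM + 1) scale, which compresses such low values, it differed by -0.23 (SE 0.13, 95% CI -0.53 to 0.061, limma adjusted p of 0.325), and the ratio of the group means was 0.779. With a pseudocount of 0.1 TPM the log2 fold change was -0.34, still short of the threshold. The number of reads behind these TPM values is unknown, which matters most for a gene this low.

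Neither helicase cofactor passed the threshold, and the groups overlapped for both. EIF4B (chr12:53006158-53042209, plus strand), which stimulates eIF4A and is a substrate of S6 kinase, had DMSO values of 96.5, 76.85, 89.5 and 103 TPM and CR31B values of 123, 98.75, 87.4 and 101 TPM. EIF4H (chr7:74174245-74197101, plus strand), a smaller relative, had DMSO values of 255, 262, 229 and 262 TPM and CR31B values of 311, 306, 228 and 259 TPM. In 2 of 4 replicate pairs the CR31B library had the higher value, for each gene. Their log2 fold changes were 0.16 (SE 0.14, 95% CI -0.14 to 0.46) and 0.12 (SE 0.13, 95% CI -0.16 to 0.40), with limma adjusted p of 0.521 and 0.618.

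Both cofactors have pseudogene copies. EIF4B shares 87.4% of its coding windows with 9 copies, of which none exceeded 1.04 TPM in any library. EIF4H shares 65.4%, nearly all with EIF4HP1, which the table lists at 128 ± 25.2 TPM for DMSO and 121 ± 16.1 TPM for CR31B, equal to 47.1% of the EIF4H level. Whether its footprints came from EIF4H mRNA was not tested. With the copies added the EIF4H log2 fold change was 0.057.

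Over the 10 genes, all of which passed the filter of a mean of 1 TPM, 1 rose and 1 fell. Over all 11778 genes tested 7.46% were called, 3.45% higher and 4.02% lower in CR31B. With the replicate block the calls among the 10 were also 1 higher and 1 lower, against 12.3% of all genes (5.77% higher and 6.56% lower). Groups did not overlap for 4 of the 10, EIF4G1 and EIF4E higher and EIF4G2 and EIF4EBP2 lower; over all genes tested this held for 16.2% (8.07% higher and 8.14% lower). The log2 fold change was above 0 in 8 of 10 with a median of 0.17, against 54.1% and a median of 0.029 over all genes. With so few genes these counts are a description.

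**Figure D3:**
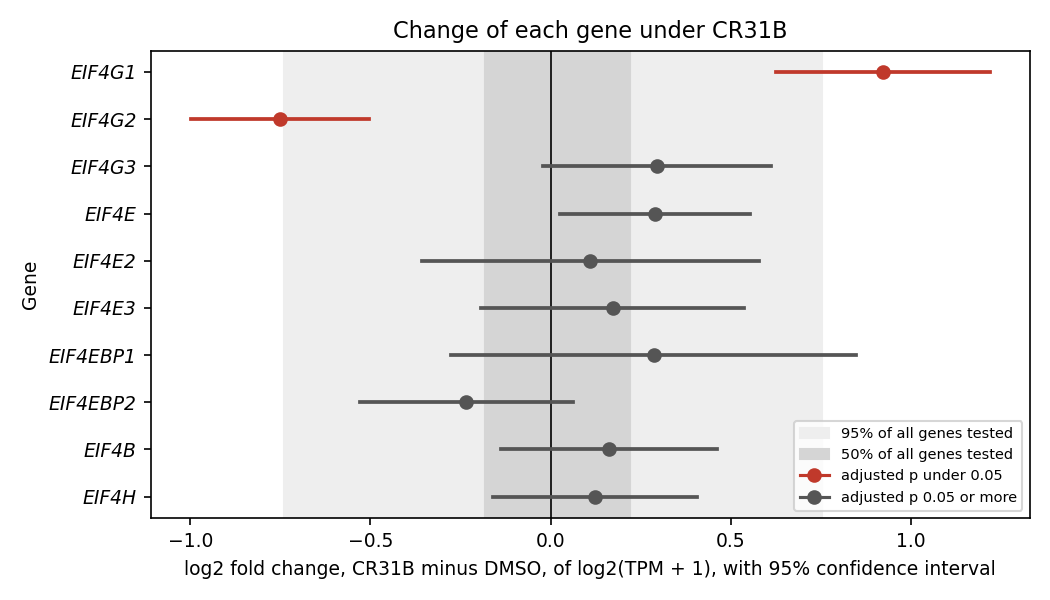
Log2 fold change (CR31B minus DMSO, on the log2(TPM + 1) scale) of each gene with its 95% confidence interval from limma, over grey bands that hold 50% and 95% of all 11778 genes tested. EIF4G1 at 0.92 and EIF4G2 at -0.75, in red, lie outside the wider band of -0.74 to 0.75, and the other 8 genes lie inside it.

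The proteins that work with these factors were taken as 3 lists, also chosen with earlier results of these data known. Of 27 cap complex partners 25 were tested, of which 1 rose and 3 fell, with 13 above 0 and a median log2 fold change of 0.0021. Over all genes tested 3.45% rose, 4.02% fell and 54.1% were above 0, with a median of 0.029, so neither the 13 of 25 nor the median stands far from the background. EIF4A2, a paralog of the helicase EIF4A1, rose from 131 ± 14.2 TPM to 226 ± 39.4 TPM under CR31B (SD, n = 4 each; 0.78 on the log2 scale with SE 0.14; limma adjusted p of 0.00974). EIF4A1 itself had means of 2584 ± 232 TPM for DMSO and 3084 ± 527 TPM for CR31B and did not pass (limma adjusted p of 0.378). In TPM it read far above any scaffold, without regard to the coding share of each transcript.

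The falls among the partners included both tested PABP-interacting proteins. PAIP1, which links poly(A)-binding protein to initiation, had CR31B values of 19.7, 23.1, 19.2 and 17.7 TPM against a DMSO mean of 31.4 ± 2.06 TPM (SD, n = 4). PAIP2, which displaces poly(A)-binding protein from mRNA, had CR31B values of 58.1, 62.3, 60.1 and 47.4 TPM against DMSO values of 91.8, 90.9, 93.5 and 94.8 TPM. Neither gene overlapped between groups, and their log2 fold changes were -0.63 and -0.70 (limma adjusted p of 0.00998 and 0.00568), held in all 18 alternatives. Poly(A)-binding protein itself, PABPC1, averaged 206 ± 27.3 TPM for DMSO and 234 ± 27.0 TPM for CR31B and did not pass (limma adjusted p of 0.450). CTIF, a scaffold of the nuclear cap-binding complex, fell from 8.35 ± 0.830 to 5.235 ± 0.764 TPM (log2 fold change -0.59, limma adjusted p of 0.0265). The CTIF call was lost without CR31B replicate 1, 3 or 4 or DMSO replicate 1, 2 or 4, with limma adjusted p from 0.0506 to 0.0815. DDX3X, another helicase that acts on leaders, averaged 459.9 ± 49.2 TPM for DMSO and 356 ± 54.5 TPM for CR31B, with a limma adjusted p of 0.134 and of 0.0466 with the replicate block.

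Of the 13 subunits of eIF3, which bridges eIF4G and the small ribosomal subunit, 1 rose and none fell, with 7 above 0 and a median of 0.014; of all genes tested 3.45% rose, 4.02% fell and 54.1% were above 0. It was EIF3A, with 48.7 ± 2.93 TPM for DMSO and 64.4 ± 4.92 TPM for CR31B (log2 fold change 0.39, limma adjusted p of 0.0457). In limma without adjustment 2 of these subunits were under 0.05, EIF3A and EIF3J, both higher in CR31B, against 23.4% of all genes tested. Of 11 genes of the mTORC1 pathway 10 were tested, of which 1 rose and none fell, with 8 above 0 and a median of 0.23, beside those same shares and a median of 0.029 over all genes. RPS6KB2, an S6 kinase, went from 8.69 ± 1.63 to 14.2 ± 2.73 TPM (log2 fold change 0.65, limma adjusted p of 0.0436). Without adjustment 3 of the 10 were under 0.05 in limma, RPS6KB2, RPS6KB1 and TSC2, all higher, against 23.4% of all genes tested in either direction. Both adjusted calls were fragile: they were lost without CR31B replicate 1, 3 or 4 or without any 1 DMSO library, with limma adjusted p from 0.0513 to 0.124 for EIF3A and from 0.0534 to 0.112 for RPS6KB2. MTOR and RPTOR, the kinase and its substrate adaptor, did not pass.

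**Figure D4:**
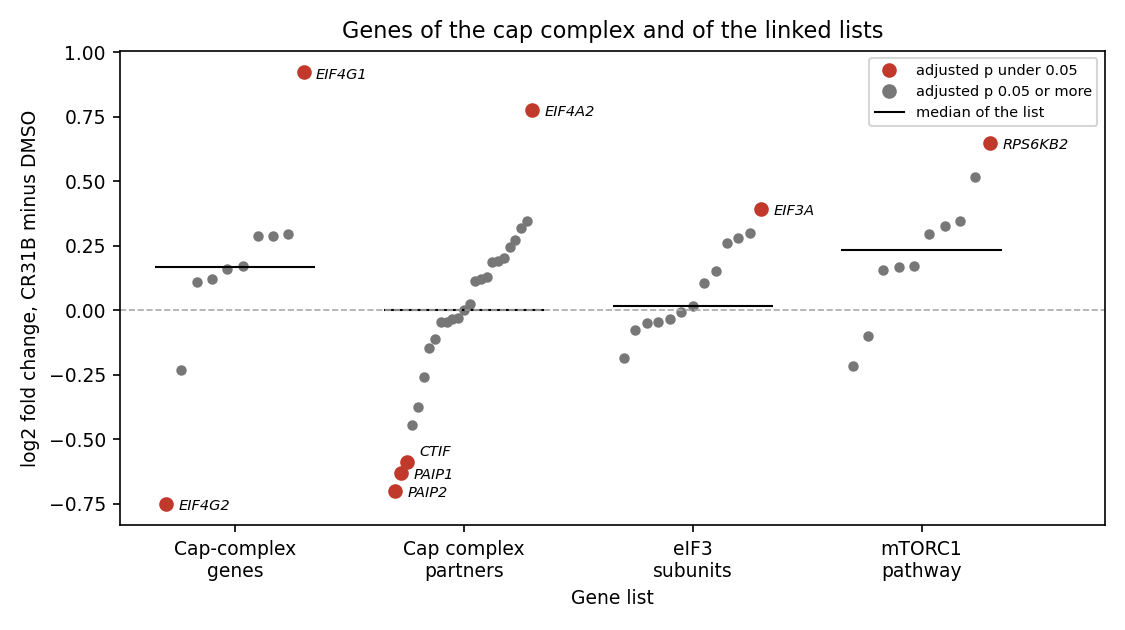
Log2 fold change (CR31B minus DMSO) of every tested gene in 4 lists, 1 point per gene, red with its name where the limma adjusted p is under 0.05, with a black line at each list's median. EIF4G1 and EIF4A2 are the highest points, EIF4G2 and PAIP2 the lowest, and the medians run from 0.0021 to 0.23.

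Genes whose profile over the 8 libraries was nearest to the scaffolds were found among 5612 others with a mean of at least 10 TPM, by the root mean square difference of centred log2(TPM + 1) values. For EIF4G1 they were SHMT2, a mitochondrial enzyme of serine metabolism, at 0.129, EIF4A2 at 0.149 and MTERF2 at 0.162, against a median of 0.512 over all those genes. SHMT2 averaged 63.6 ± 5.59 TPM for DMSO and 124 ± 14.2 TPM for CR31B (SD, n = 4 each), close to EIF4G1 in level as well. For EIF4G2 they were CD276, a cell-surface immune ligand, at 0.0631, GPBP1 at 0.0671 and PFDN6, a prefoldin chaperone subunit, at 0.0720, against a median of 0.458. CD276 averaged 40.4 ± 0.838 TPM for DMSO and 23.2 ± 1.59 TPM for CR31B, and PFDN6 177 ± 7.997 TPM and 107 ± 7.22 TPM. This nearness is a description over 8 libraries that share the treatment contrast.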

How the data were processed

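The authors deposited 1 table of TPM per gene and library, scaled per length and to a fixed sum; the submitters' processing notes name cutadapt 3.2, Bowtie2 2.3.4.1, STAR 2.7.1a, RSEM 1.2.28 and DESeq2 1.32.0, and GRCh38. The annotation release, strand setting and treatment of multiply mapping reads are not given in the sources used here. TPM keeps no read depth, so no count model was run. Columns were matched by library description, symbols by Ensembl identifier (60481 of 60651), and positions and transcripts from GENCODE 29 (58405 matched without version, 38152 with it), so gene boundaries may differ slightly from those the authors used.

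The 11778 genes averaging 1 TPM or more were fitted as log2(TPM + 1) with limma 3.58.1 in R 4.3.3 (mean-variance trend, treatment only, Benjamini-Hochberg over all genes, threshold 0.05). The same fit was also run on 5 simulated tables with 200 genes changed in each. It recovered 77.0% of log2 changes of 1 and 95.9% of log2 changes of 2, and 4.53% of its calls were false. Smaller changes and correlated libraries were not simulated. Single values were compared by two-sided exact permutation over 70 assignments in Python 3.11.15 with NumPy 2.4.6. Same-numbered libraries deviated together for replicates 1 to 3 (correlations 0.333, 0.324 and 0.301). For replicate 4 the correlation of 0.105 lay within the range for unlike numbers, -0.206 to 0.134. All 4 were treated as pairs in an alternative fit. The pairing comes from the data, as no label states what the numbers share. The representative transcript of a gene was the best APPRIS-ranked, then the longest coding one. Alternatives were 2 other scalings and quantile normalization, pseudocounts of 0.1 and 5 TPM, other filters, no trend, library weights, the block and each library left out. All 10 genes were named, with called genes of 3 lists and the 3 nearest profiles of the largest rise and fall. Genes and lists were chosen with earlier results of these data known.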

Additional observations from a re-analysis of the deposited data

Results flagged for a closer look

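In 34 groups of 4 libraries (10 genes and 7 log2 ratios in each treatment), 5 held a library whose distance to its closest neighbour spanned most of the group's whole range, past a set limit at 95%; about 5% of groups would do so by chance. EIF4E was high in CR31B replicate 1, at 260.75 TPM against 205 to 214 TPM in the others, the library with the most protein-coding TPM (61.3%), whose part in this value was not tested. EIF4E3 was high in DMSO replicate 3, at 4.92 TPM against 3.29 to 3.54 TPM, and the log2 ratio of EIF4E and EIF4E3 was low in the same library, at 4.76 against 5.42 to 5.46. The log2 ratio of EIF4B and EIF4H was low in replicate 2 of both groups, at -1.62 in CR31B against -1.37 to -1.33 and at -1.76 in DMSO against -1.39 to -1.34.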

How the results depend on the processing

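For the 10 genes, 178 of 183 values kept their direction and side of the threshold, 2 became stronger and 3 reversed. EIF4E passed after quantile normalization, at 0.37, and after rescaling over protein-coding genes, at 0.32. EIF4E2 reversed with library weights, at -0.013, and ranged from -0.069 to 0.22 when 1 library was left out. Of 105 values for the 7 pairs of paralogs, 102 kept their direction and 3 reversed. None passed the threshold, as in the main comparison. With 1 library left out, or within replicate pairs, no exact permutation p under 0.05 is possible, so those calls could not change. EIF4B and EIF4H reversed after quantile normalization, at -0.042, and ranged from -0.061 to 0.11 leaving out 1 library. EIF4E and EIF4E3 ranged from -0.053 to 0.26 leaving out 1 library. The 879 called genes (406 higher, 473 lower) became 442 with no filter on low values, 1453 with the replicate block, 1321 with library weights, 1240 (674 higher, 566 lower) when rescaled over protein-coding genes, and 404 to 785 leaving out 1 library. For the called genes of the linked lists 25 of 107 values fell short of the threshold, all for CTIF, EIF3A or RPS6KB2. The replicate block changed no call among the 10 genes. EIF4G3, EIF4E3 and EIF4EBP2 were below the filter of 10 TPM, so that alternative gave them no value. Adding the TPM of genes that share sequence was chosen after seeing the data. The causes of these shifts were not tested, and the read depth behind low genes is unknown.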

Other observations

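EIF4E1B, the germline paralog of EIF4E, was listed at 0 in 7 of 8 libraries and at 0.01 TPM in the other. EIF4EP2, the EIF4E pseudogene, had a value of -0.73 on the log2 scale (SE 0.21; adjusted p in limma 0.0597), short of the threshold, against 0.29 for EIF4E, and EIF4HP1 had a log2 fold change of -0.075 (limma adjusted p of 0.817).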
